A study of Mus musculus with 12 samples.

Results

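The 10 genes described here mark T cells and regulatory T cells in mouse skin. They are Cd3d, Cd3e and Cd3g of the CD3 complex, the coreceptors Cd4 and Cd8a, the T cell surface receptor Cd5, the IL-2 receptor alpha chain Il2ra (CD25), the transcription factor Foxp3, and the receptors Ctla4 and Icos. The genes were chosen by name, with earlier results of these data known, Cd4 and Il2ra because the study stained skin sections for CD4 and CD25, and the others as widely used T cell genes. All 10 were found in the table of 52636 genes by their Ensembl identifiers, and all 10 were among the 18822 genes that passed the filter on low counts.

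A T cell recognises its target through a T cell receptor whose variable chains signal through the CD3 subunits, and Cd4 or Cd8a helps to bind the major histocompatibility complex of class II or class I. Regulatory T cells, a suppressive kind of CD4 T cell, depend on the transcription factor Foxp3 and carry much CD25, CTLA-4 and ICOS on their surface. Mouse skin holds regulatory T cells around hair follicles, other T cells in the dermis, and dendritic epidermal T cells with a gamma delta receptor among the keratinocytes. Cd4, Il2ra, Ctla4 and Icos are not confined to regulatory T cells, since activated helper T cells also make CD25, CTLA-4 and ICOS and some myeloid cells make Cd4.

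Skin of C57BL/6 mice aged 3 months was sequenced on day 14, with 3 mice in each of 4 groups. WT mice (genotype label wild type) and KO mice (genotype label Cdc42-/-) received the vehicle, normal saline with HPMC, on shaved dorsal skin. The groups labelled WT+ZnO NPs and KO+ZnO NPs carry the same genotype labels and received zinc oxide nanoparticles (ZnO NPs) in that vehicle for 14 days. The study used the KO mice as a model of a weak epidermal barrier. By its methods Cdc42 was removed by a Cre recombinase under the K5 promoter, which is active in basal keratinocytes, so the other cells of the skin were not the intended target. Its genotyping figure names mice without Cre that carry the loxP-flanked allele as the WT. Each library came from a piece of full-thickness skin, so T cells gave only a small part of its RNA.

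Totals lay between 21076320 and 28867802 counts per library. The Cdc42 transcript, read as a check of the labels, lay between 606 and 628 CPM (counts scaled to library size by TMM) in the WT libraries, between 415 and 464 in the KO libraries, between 311 and 350 in the libraries with the WT+ZnO NPs label and between 314 and 453 in those with the KO+ZnO NPs label. It therefore went against the label of the libraries with the WT+ZnO NPs label and did not separate both groups given ZnO NPs, which are named by their labels throughout. The summed level of 4 Y-linked genes lay from 191.7 to 241.7 CPM in all 3 libraries with the WT+ZnO NPs label, in KO replicate 1 and in KO+ZnO NPs replicate 1, and to at most 0.0504 CPM in the other 7, while the methods describe female KO mice. Log2 fold changes of the 10 genes without the libraries that carry Y-linked transcripts are given below for both comparisons with KO libraries that allow them, while the gene lists were not refitted without them.

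In the GENCODE annotation on GRCm38, Cd3g (chr9:44969572-44980431, minus strand) and Cd3d (chr9:44981786-44987339, plus strand) start 1355 bases apart and are read in opposite directions, and Cd3e (chr9:44998740-45009627, minus strand) lies next to them. Ctla4 (chr1:60887000-60915832) and Icos (chr1:60977927-61000320) are neighbours on the plus strand, 62095 bases apart. Foxp3 (chrX:7573644-7595245, plus strand) overlaps 4 other genes, and 23.1% of its 50-base stretches also occur in transcripts of other genes, against 0 to 2.16% for the other 9. Of those neighbours Ppp1r3f had 0.510 to 1.45 CPM, with 0.510 to 0.881 CPM in WT and 1.23 to 1.45 CPM in KO. Flicr had at most 0.480 CPM in any library, Ccdc22 is listed at 0 in all 12, and the level of Gm36995 is not given. How far shared stretches changed the counts of Foxp3 was not tested. The other members are Cd4 (chr6:124864692-124888221, minus strand), Cd8a (chr6:71373427-71379173, plus strand), Il2ra (chr2:11642807-11693193, plus strand) and Cd5 (chr19:10717116-10739002, minus strand).

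Of the 10 genes, 8 have a promoter in the RefSeq table on GRCm38.p6, and 4 of these are shown because the results below set the CD3 genes (Cd3d, Cd3e) beside the regulatory T cell genes (Foxp3, Ctla4). Each is the 250 bases before a RefSeq start, 5′ to 3′ on the gene's strand, from chr9:44981536-44981785 (plus strand), chr9:45009612-45009861 (minus strand), chrX:7579426-7579675 (plus strand) and chr1:60908775-60909024 (plus strand). The windows of Foxp3 and Ctla4 fall inside the longer GENCODE spans of these genes. Capitals mark a motif. The ETS-type motif searched was CAGGAA. The NFAT-type motif was GGAAAA. The TATA box was TATAAA. Each was searched on both strands, so that a match on the other strand stands as its reverse complement. Among 32851 RefSeq promoters of this length 25.7% hold the ETS-type motif, 20.4% the NFAT-type motif and 12.4% the TATA box.
Cd3d: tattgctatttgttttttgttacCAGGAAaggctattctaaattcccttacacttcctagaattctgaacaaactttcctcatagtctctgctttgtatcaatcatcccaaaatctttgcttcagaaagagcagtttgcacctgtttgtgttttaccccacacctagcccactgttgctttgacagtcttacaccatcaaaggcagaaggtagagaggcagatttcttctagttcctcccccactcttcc
Cd3e: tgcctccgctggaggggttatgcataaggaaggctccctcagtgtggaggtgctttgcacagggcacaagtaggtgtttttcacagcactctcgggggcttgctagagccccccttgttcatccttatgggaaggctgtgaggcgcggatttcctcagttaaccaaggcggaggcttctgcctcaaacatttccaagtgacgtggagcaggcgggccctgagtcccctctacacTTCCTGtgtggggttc
Foxp3: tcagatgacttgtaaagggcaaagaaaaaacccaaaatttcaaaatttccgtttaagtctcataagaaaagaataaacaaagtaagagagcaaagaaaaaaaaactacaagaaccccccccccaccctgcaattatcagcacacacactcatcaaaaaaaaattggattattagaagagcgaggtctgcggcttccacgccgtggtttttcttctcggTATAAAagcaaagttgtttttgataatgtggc
Ctla4: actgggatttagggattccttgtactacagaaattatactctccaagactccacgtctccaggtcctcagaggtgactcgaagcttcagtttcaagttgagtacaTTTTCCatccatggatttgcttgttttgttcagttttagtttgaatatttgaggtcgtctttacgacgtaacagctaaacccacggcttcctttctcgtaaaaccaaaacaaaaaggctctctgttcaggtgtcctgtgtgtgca
The windows of Cd3d and Cd3e each hold 1 ETS-type motif, as does that of Cd5, which is not shown. The window of Foxp3 shown holds 1 TATA box, and that of Ctla4 holds 1 NFAT-type motif. A second RefSeq start of Foxp3 has a window, from chrX:7580233 on and not shown, that holds 1 NFAT-type motif and 0 TATA boxes. Such matches describe the letters and are not evidence of binding.

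Levels between genes can be compared only per length of transcript. By transcript abundance corrected for length and scaled to the same sum in every library (TPM), averaged over the 12 libraries, Cd3g was highest at 10.8 and Foxp3 lowest at 1.46. Between them came Cd3d at 6.26, Cd4 at 6.12, Icos at 5.55, Ctla4 at 4.28, Il2ra at 2.85, Cd3e at 2.83 and Cd5 at 2.24 TPM, and then Cd8a, which ranged from 0.274 to 4.13 TPM. Within a library, Cd3g was above Cd3d and Cd5 was above Cd8a in all 12, and Icos was above Ctla4 in 11 of 12. The other neighbours in this order changed places between libraries (the higher gene on average was above the next in 5 to 9 of 12). The TPM of Cd4 varied from 0.463 to 25.7 and that of Foxp3 from 0.128 to 6.68 between libraries. Cd3g had the highest mean TPM in all 4 groups. Foxp3 had the lowest of the 10 in 3 groups and stood at rank 8 in the KO group.

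**Figure D1:**
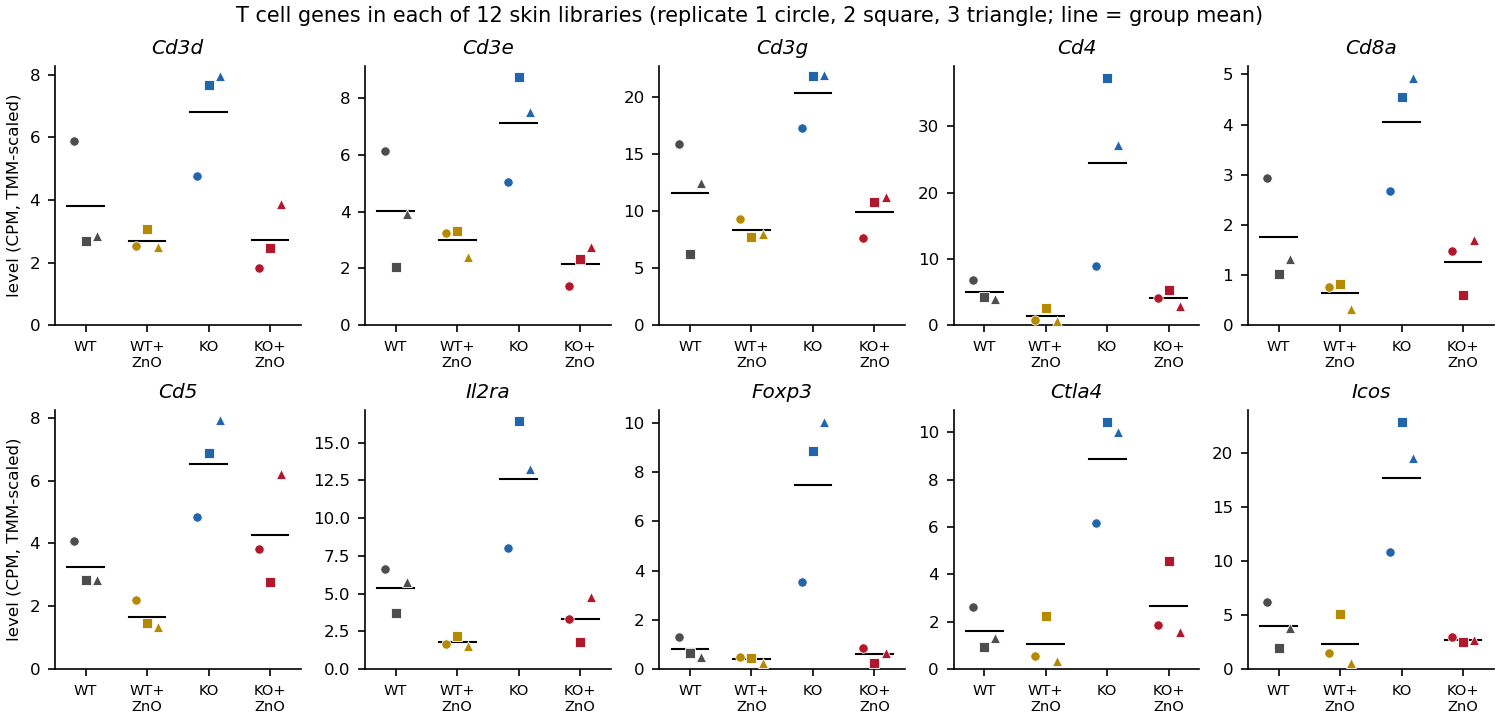
Level of each gene in CPM (vertical axes from 0, scaled by TMM factors) in the 3 libraries of each group, with each library a point and the group mean a line. The KO libraries are highest on average for all 10 genes, and for Foxp3 they lie between 3.53 and 10.04 CPM while the other 9 libraries lie between 0.237 and 1.30 CPM.

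KO and WT skin under vehicle were compared to see what differed with Cdc42 deletion alone. The genes Foxp3 and Cd4 rose, and the other 8 of the 10 did not pass the test. A gene was called where edgeR's quasi-likelihood test gave a Benjamini-Hochberg adjusted p below 0.05, and 4.61% of all genes tested were called higher here, against 2 of the 10. The log2 fold changes of all 10 were above 0, from 0.82 to 3.22 with a median of 1.22, whereas the median over all genes tested was 0.00998 and 51.0% of them were above 0. For 7 of the 10 every KO library was above every WT library, which held for 18.6% of all genes tested. Because whole skin was sequenced, more T cells and more RNA per T cell cannot be told apart in any of these values, and the same holds for fewer cells and less RNA.

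Foxp3, the factor that defines regulatory T cells, had 1.30, 0.632 and 0.467 CPM in WT replicates 1 to 3 (0.800 ± 0.442, SD, n = 3), which rest on 31, 18 and 11 counts. In KO replicates 1 to 3 it had 3.53, 8.88 and 10.04 CPM (7.48 ± 3.47, SD, n = 3), from 83, 221 and 228 counts. The groups did not overlap, and KO replicate 1, the KO library with Y-linked transcripts, was the lowest of its group. Foxp3 rose 9.32-fold (log2 fold change 3.22, SE 0.57; edgeR quasi-likelihood test, Benjamini-Hochberg adjusted p = 0.00918). The call was kept in every refit that left out 1 library except that without WT replicate 2 (adjusted p = 0.0575, edgeR), and with only the libraries that lack Y-linked transcripts the log2 fold change was 3.56 (adjusted p = 0.0257, edgeR).

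Ctla4 encodes the receptor that outcompetes CD28 for its ligands on antigen-presenting cells. It had 2.60, 0.948 and 1.32 CPM in the WT libraries and 6.17, 10.4 and 10.04 CPM in the KO libraries. All KO libraries were above all WT libraries, by a mean of 8.88 ± 2.36 against 1.62 ± 0.868 CPM (SD, n = 3), but the call just missed the threshold (log2 fold change 2.45, SE 0.69; edgeR quasi-likelihood test, Benjamini-Hochberg adjusted p = 0.0536). Icos, the inducible costimulator, had 6.17, 1.90 and 3.78 CPM in WT and 10.8, 22.9 and 19.5 CPM in KO. It too separated the groups without passing the test (log2 fold change 2.17, SE 0.68; edgeR, adjusted p = 0.0750). Il2ra, the chain that gives the IL-2 receptor its high affinity, had 6.63, 3.69 and 5.74 CPM in WT and 8.04, 16.4 and 13.3 CPM in KO. Its groups did not overlap either, and its log2 fold change was 1.23 (SE 0.38; edgeR, adjusted p = 0.0706).

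Cd4, the coreceptor of helper and regulatory T cells, had 6.76, 4.28 and 3.99 CPM in the WT libraries. In the KO libraries it had 8.93, 37.2 and 27.1 CPM, so that replicate 1 lay near the WT libraries and the others far above. Cd4 rose 4.87-fold (log2 fold change 2.28, SE 0.60; edgeR quasi-likelihood test, Benjamini-Hochberg adjusted p = 0.0433). This call was lost without any 1 of WT replicates 1, 2 and 3 (adjusted p = 0.0785, 0.164 and 0.135), KO replicates 2 and 3 (0.122 and 0.100) or KO+ZnO NPs replicate 1 (0.0503, all by edgeR), and in the fit with the replicate number as a block (adjusted p = 0.0553). It was kept with only the libraries that lack Y-linked transcripts (log2 fold change 2.68, adjusted p = 0.0194, edgeR). Cd8a, the coreceptor of cytotoxic T cells, had 2.94, 1.02 and 1.32 CPM in WT and 2.68, 4.54 and 4.93 CPM in KO. The groups overlapped, and its log2 fold change of 1.21 (SE 0.51) did not pass the test (edgeR, adjusted p = 0.167).

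The CD3 genes differed least. Cd3g had 15.9, 6.28 and 12.5 CPM in WT and 17.3, 21.9 and 21.9 CPM in KO, a log2 fold change of 0.82 (SE 0.30; edgeR, Benjamini-Hochberg adjusted p = 0.111). Cd3d ranged from 2.70 to 5.88 CPM in WT and from 4.76 to 7.97 CPM in KO (log2 fold change 0.84, SE 0.37), and Cd3e from 2.04 to 6.13 and from 5.06 to 8.76 CPM (0.82, SE 0.40). The groups overlapped for both, and neither passed the test (edgeR, adjusted p = 0.185 and 0.221). Cd5, which dampens T cell receptor signals, had 4.07, 2.84 and 2.85 CPM in WT and 4.85, 6.87 and 7.93 CPM in KO, without overlap and without a call (log2 fold change 1.01, SE 0.34; edgeR, adjusted p = 0.0932). DESeq2 on the same counts called 6 of the 10 higher in KO skin, adding Ctla4, Icos, Il2ra and Cd5 to Foxp3 and Cd4, and it called 7.54% of all genes higher. With only the libraries that lack Y-linked transcripts, Icos was called too (log2 fold change 2.43; edgeR, adjusted p = 0.0388), and the values that were not called were 2.66 for Ctla4, 1.47 for Il2ra, 1.43 for Cd8a, 1.18 for Cd5, 1.04 for Cd3d, 1.02 for Cd3e and 0.92 for Cd3g.

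**Figure D2:**
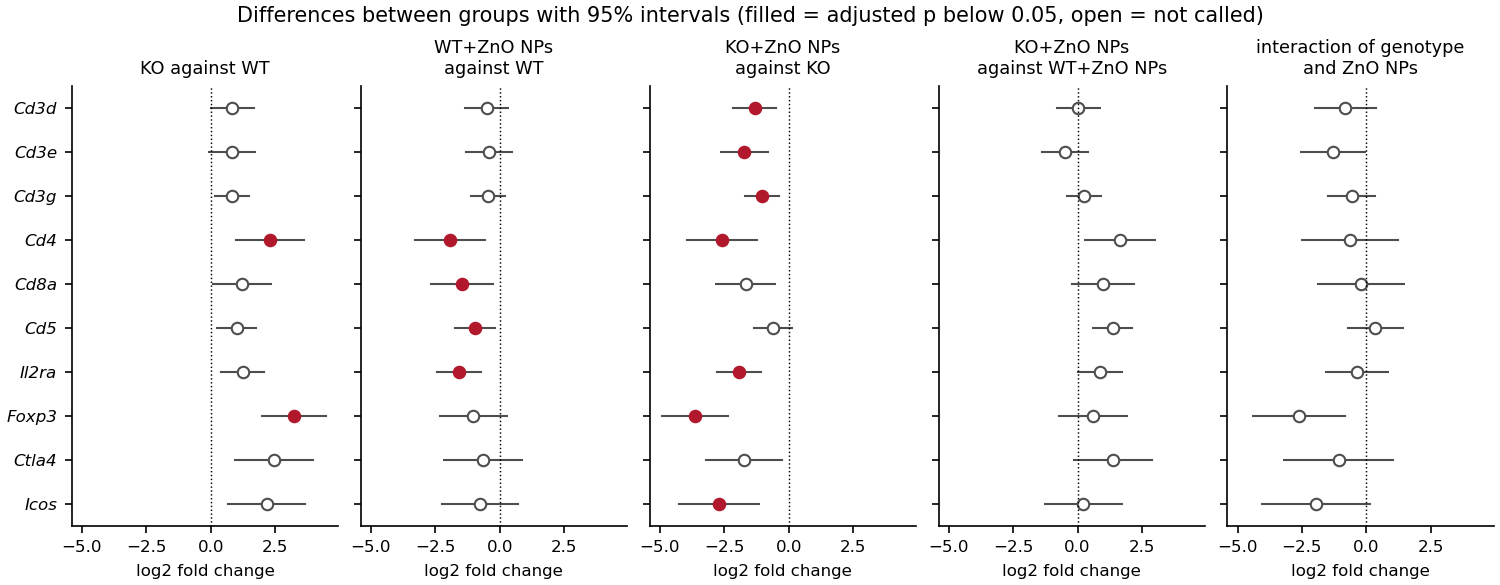
Log2 fold change of each gene (horizontal axis) with its 95% interval in the 4 comparisons and the interaction, from edgeR fitted to all 12 libraries; filled points have an adjusted p below 0.05. Filled points number 2, 4, 7, 0 and 0 from left to right, and the widest departures from 0 are those of Foxp3, at 3.22 in KO against WT and -3.64 in KO+ZnO NPs against KO.

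The KO libraries were next compared with those with the KO+ZnO NPs label, to see what differed with ZnO NPs in KO skin. Foxp3, Icos, Cd4, Il2ra, Cd3e, Cd3d and Cd3g fell, 7 of the 10, and 0 rose, whereas 8.09% of all genes tested were called lower. All 10 log2 fold changes were below 0, with a median of -1.73 against 0.00728 for all genes tested, of which 49.5% lay below 0. For 9 of the 10 every library labelled KO+ZnO NPs was below every KO library, which was so for 17.7% of all genes tested. This comparison shares the KO libraries with the one before, so that high values in the KO libraries enter both.

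Foxp3 had 0.873, 0.252 and 0.653 CPM in the libraries with the KO+ZnO NPs label, from 20, 5 and 15 counts. All lay below the lowest KO library and within or below the range of the WT libraries. Foxp3 fell 12.4-fold from its KO level (log2 fold change -3.64, SE 0.58; edgeR quasi-likelihood test, Benjamini-Hochberg adjusted p = 0.00755). It was called in every refit without 1 library, with adjusted p of at most 0.0346 by edgeR, and in the fit of only the libraries that lack Y-linked transcripts, where its log2 fold change was -4.34 (adjusted p = 0.0121, edgeR).

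Icos had 2.92, 2.52 and 2.70 CPM with ZnO NPs in KO skin, the narrowest spread of any member in this group (2.71 ± 0.202 CPM, SD, n = 3), and fell 6.52-fold (log2 fold change -2.70, SE 0.70; edgeR, Benjamini-Hochberg adjusted p = 0.0300). Il2ra had 3.32, 1.81 and 4.75 CPM and fell 3.81-fold (log2 fold change -1.93, SE 0.39; edgeR, adjusted p = 0.0138). Both sets of libraries lay wholly below the KO libraries. Ctla4, at 1.88, 4.59 and 1.57 CPM, also did, but its log2 fold change of -1.73 (SE 0.67) did not pass the test (edgeR, adjusted p = 0.102), nor did it at -2.34 without KO+ZnO NPs replicate 2 (adjusted p = 0.0806, edgeR).

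Cd4 had 4.10, 5.24 and 2.87 CPM in the libraries with the KO+ZnO NPs label and fell 6.00-fold (log2 fold change -2.58, SE 0.61; edgeR, Benjamini-Hochberg adjusted p = 0.0220). Cd8a had 1.48, 0.605 and 1.70 CPM, all below the KO libraries, and a log2 fold change of -1.67 (SE 0.52) that missed the threshold (edgeR, adjusted p = 0.0552). Among the CD3 genes Cd3e differed most, with 1.40, 2.32 and 2.74 CPM, and fell 3.30-fold (log2 fold change -1.72, SE 0.41; edgeR, adjusted p = 0.0228). Cd3d at 1.83, 2.47 and 3.88 CPM fell 2.49-fold (log2 fold change -1.32, SE 0.38), and Cd3g at 7.68, 10.8 and 11.3 CPM fell 2.05-fold (log2 fold change -1.04, SE 0.30), with adjusted p of 0.0422 and 0.0416 by edgeR. Cd5 was the exception among the 10, with 3.84, 2.77 and 6.23 CPM that overlapped the KO libraries (log2 fold change -0.61, SE 0.34; edgeR, adjusted p = 0.238).

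Several of these calls were lost when 1 library was left out, while the folds stayed of similar size. The log2 fold change then ranged from -2.98 to -2.13 for Cd4, from -2.96 to -2.47 for Icos, from -1.92 to -1.49 for Cd3e, from -1.64 to -1.10 for Cd3d and from -1.14 to -0.88 for Cd3g. Over all 23 alternatives, those with other settings included, Cd3d was called in 11 and Cd3g in 10. Without KO replicate 2 Foxp3 alone was called, without KO replicate 3 or KO+ZnO NPs replicate 2 Foxp3 and Il2ra were, and without KO+ZnO NPs replicate 1 or replicate 3 there were 4 calls. With only the libraries that lack Y-linked transcripts, Foxp3, Cd4, Icos and Il2ra were called lower, 4 of the 10 beside 7.39% of all genes in that fit. The CD3 genes were not called there, at log2 fold changes of -1.67 for Cd3e, -1.29 for Cd3d and -0.98 for Cd3g (adjusted p = 0.0727, 0.110 and 0.141, edgeR), nor were Ctla4 at -1.73, Cd8a at -2.02 and Cd5 at -0.71.

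In WT skin the effect of ZnO NPs was asked with the libraries with the WT+ZnO NPs label. Cd4, Il2ra, Cd8a and Cd5 fell, 4 of the 10, and 0 rose. In the same comparison 22.1% of all genes tested were called lower, so that this share is not far from the background. All 10 log2 fold changes were below 0, with a median of -0.86 beside 0.0563 for all genes tested, of which 47.3% lay below 0. Only the 4 called genes had groups without overlap, 4 of 10 against 29.3% of all genes tested.

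Il2ra had 1.64, 2.19 and 1.54 CPM in the libraries with the WT+ZnO NPs label, below all WT libraries, and fell 2.98-fold (log2 fold change -1.58, SE 0.39; edgeR quasi-likelihood test, Benjamini-Hochberg adjusted p = 0.00866). Cd4 had 0.760, 2.60 and 0.593 CPM and fell 3.82-fold (log2 fold change -1.93, SE 0.62; edgeR, adjusted p = 0.0274), with replicate 2 the highest of its group. Cd8a, at 0.760, 0.822 and 0.316 CPM, rested on 19, 18 and 8 counts and fell 2.77-fold (log2 fold change -1.47, SE 0.54; edgeR, adjusted p = 0.0487). Cd5 had 2.20, 1.46 and 1.34 CPM and fell 1.94-fold (log2 fold change -0.96, SE 0.35; edgeR, adjusted p = 0.0461). The calls of Cd8a and Cd5 stood close to the threshold, and of the 12 refits that left out 1 library Cd8a was called in 2 (without WT replicate 2 or KO+ZnO NPs replicate 2) and Cd5 in 4. The call of Cd4 was lost without WT replicate 1 (adjusted p = 0.0823) and without replicates 1 and 3 with the WT+ZnO NPs label (0.0886 and 0.0952, each left out in turn, edgeR), and that of Il2ra was kept in all 12.

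Foxp3 had 0.480, 0.457 and 0.237 CPM in these libraries, from 12, 10 and 6 counts, and overlapped the WT range (log2 fold change -1.02, SE 0.58; edgeR, Benjamini-Hochberg adjusted p = 0.178). Ctla4 had 0.560, 2.24 and 0.316 CPM and Icos 1.44, 5.07 and 0.514 CPM, with replicate 2 standing above the other 2 libraries of the group for both genes. Their log2 fold changes were -0.65 (SE 0.69) and -0.76 (SE 0.67), and without that replicate they were -1.88 and -2.01, with adjusted p of 0.0415 and 0.0231 by edgeR. Without replicate 2 the log2 fold change of Cd4 was -2.88.

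None of the CD3 genes passed the test between WT and the libraries with the WT+ZnO NPs label. Cd3g had 9.32, 7.72 and 8.03 CPM, Cd3d 2.52, 3.06 and 2.49 CPM and Cd3e 3.24, 3.34 and 2.41 CPM, all inside or near the WT ranges. Their log2 fold changes were -0.47, -0.50 and -0.42, with 95% intervals from -1.12 to 0.19, from -1.33 to 0.33 and from -1.31 to 0.46. Cd3g was called without WT replicate 2 (log2 fold change -0.77; edgeR, Benjamini-Hochberg adjusted p = 0.0254) and was at -0.17 without WT replicate 1. All libraries with the WT+ZnO NPs label and none of the WT libraries carried Y-linked transcripts, and with these as a covariate 0 of the 10 were called by edgeR and 0 had an unadjusted p under 0.05, while 12.3% of all genes were called lower in that fit. The log2 fold changes were then -1.14 for Il2ra, -1.08 for Cd4, -1.24 for Cd8a and -0.54 for Cd5 (adjusted p = 0.163, 0.376, 0.288 and 0.457, edgeR), and that fit takes the contrast with the Y-linked transcripts from the KO groups.

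Between the libraries with the KO+ZnO NPs label and WT+ZnO NPs, 0 of the 10 were called by edgeR, 3 had an unadjusted p under 0.05 (Cd4, Cd5 and Il2ra), and DESeq2 called 1, Cd5. Called genes were 3.28% of all genes tested. Cd5 was higher in every library labelled KO+ZnO NPs than in those with the WT+ZnO NPs label, with a log2 fold change of 1.36 (SE 0.35; edgeR quasi-likelihood test, Benjamini-Hochberg adjusted p = 0.0576). Cd4 was separated in the same way (log2 fold change 1.63, SE 0.62; adjusted p = 0.138, edgeR), and without replicate 2 of the WT+ZnO NPs label it was at 2.58 (adjusted p = 0.0581, edgeR). These were the 2 genes whose groups did not overlap, against 13.0% of all genes tested. For Cd3d, Cd3g and Icos the log2 fold changes were 0.02, 0.25 and 0.22, with 95% intervals from -0.81 to 0.85, -0.41 to 0.90 and -1.27 to 1.71. Without 1 library Icos ranged from -0.26 (without replicate 3 of the WT+ZnO NPs label) to 1.47 (without its replicate 2), and Cd3d from -0.34 (without KO+ZnO NPs replicate 3) to 0.24 (without KO+ZnO NPs replicate 1), so no direction is given for either.

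Whether ZnO NPs acted differently in both genotypes was tested by the interaction, the log2 fold change with ZnO NPs in KO skin minus that in WT skin by label. Its WT part sets libraries with Y-linked transcripts against libraries without them, and the Cdc42 level went against the WT+ZnO NPs label. These differences cannot be told apart from ZnO NPs in it. None of the 10 passed (0 called by edgeR, beside 8.68% of all genes tested), 2 had an unadjusted p under 0.05 (Foxp3 and Cd3e), and DESeq2 called 1, Foxp3. The interaction of Foxp3 was -2.61 (SE 0.81; 95% interval from -4.40 to -0.83; edgeR quasi-likelihood test, Benjamini-Hochberg adjusted p = 0.0695), and its adjusted p ranged from 0.0163 to 0.181 over the alternatives. For Icos it was -1.95 (SE 0.95; adjusted p = 0.212), for Cd3e -1.30 (SE 0.57; 0.168) and for Ctla4 -1.08 (SE 0.96; 0.501, all edgeR). Without replicate 2 of the WT+ZnO NPs label the interaction of Icos was -0.69 and that of Ctla4 turned to 0.14. So the falls of Foxp3 and Icos in KO skin are not shown to differ from their log2 fold changes with the WT+ZnO NPs label, which were not called.

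The balance among the 10 genes was described by dividing the TPM of a gene by the mean TPM of Cd3d, Cd3e and Cd3g in the same library, without a test. That CD3 mean was 8.94, 3.67 and 5.91 TPM in the WT libraries and 8.47, 12.1 and 13.2 TPM in the KO libraries, and it was 4.81, 4.90 and 4.64 TPM and 3.28, 4.07 and 5.64 TPM in the libraries with the WT+ZnO NPs label and KO+ZnO NPs. Foxp3 reached 25.3, 44.6 and 50.8 TPM per 100 TPM of CD3 in the KO libraries (40.2 ± 13.3, SD, n = 3). In the other 9 libraries it reached 3.16 to 15.5, and the group means were 8.10 ± 2.96 in WT, 5.31 ± 1.55 in those with the WT+ZnO NPs label and 8.49 ± 6.31 in those with the KO+ZnO NPs label. All KO libraries were thus above all others in Foxp3 relative to CD3.

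Ctla4 per 100 TPM of CD3 was 86.7, 103 and 99.9 TPM in KO and 34.9, 31.2 and 26.7 TPM in WT. With ZnO NPs it was uneven, from 9.22 to 59.2 TPM in the libraries with the WT+ZnO NPs label and from 32.3 to 112.9 TPM in those with the KO+ZnO NPs label, so the latter overlapped KO. Icos per 100 TPM of CD3 was 129.3 ± 25.1 TPM in KO, 50.2 ± 7.08 in WT and 49.7 ± 17.0 in those with the KO+ZnO NPs label (SD, n = 3). Here no library of the other groups reached the lowest KO library. Il2ra, Cd8a and Cd5 were less distinct, at 55.3 ± 10.1, 28.1 ± 3.69 and 33.8 ± 2.98 TPM per 100 TPM of CD3 in KO and 44.4 ± 7.13, 21.3 ± 4.06 and 32.5 ± 10.3 in WT. With the WT+ZnO NPs label they were 19.7 ± 3.49, 10.8 ± 4.28 and 21.1 ± 4.74, with Il2ra and Cd8a below every WT library. With the KO+ZnO NPs label they were 35.0 ± 15.0, 21.7 ± 11.8 and 52.0 ± 17.1, the highest group mean for Cd5. The ratio of Cd4 to Cd8a in TPM was 5.12 ± 2.20 in KO and 2.87 ± 0.868 in WT, with overlap between these groups.

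**Figure D3:**
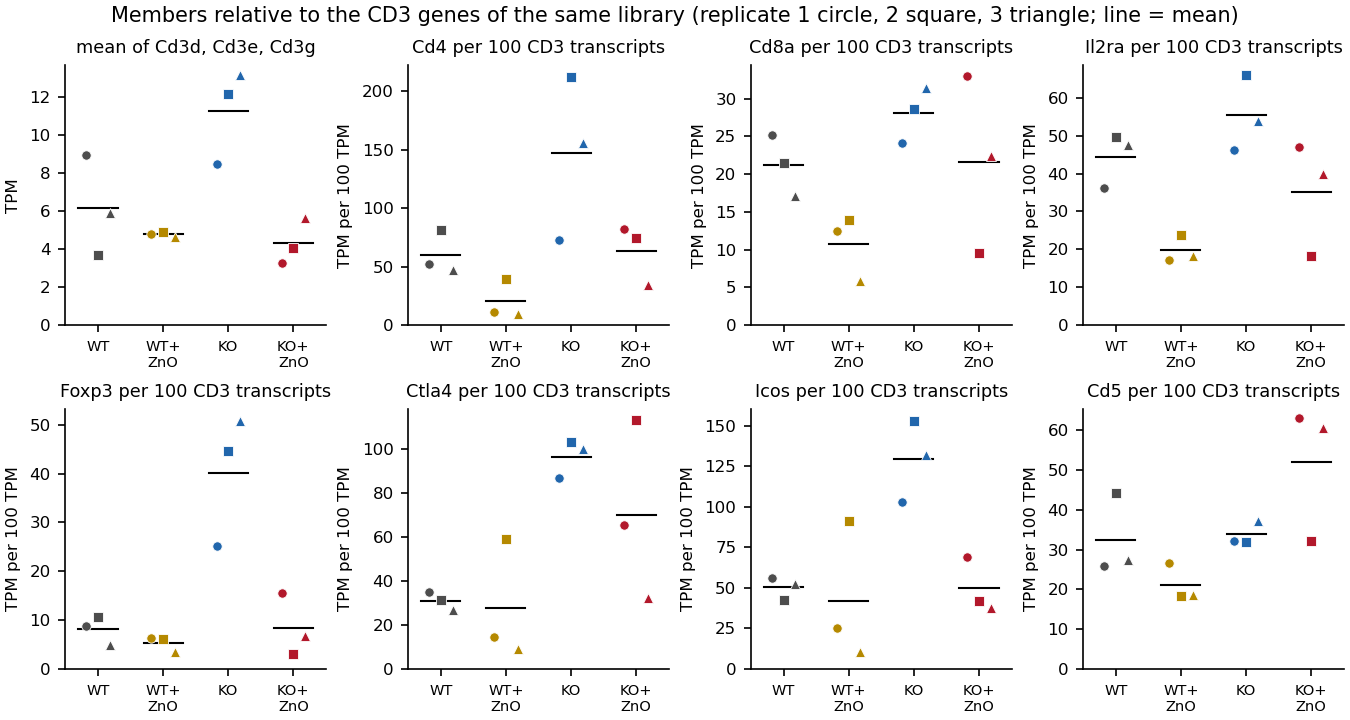
Mean TPM of Cd3d, Cd3e and Cd3g (first panel) and the TPM of 7 genes per 100 TPM of that mean (other panels, vertical axes from 0) in each library, with the group mean as a line. The KO libraries lie at 25.3 to 50.8 for Foxp3 and above all other libraries for Foxp3 and Icos. Cd8a and Cd5 overlap between KO and WT, while the libraries with the WT+ZnO NPs label lie below KO for both.

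Within the CD3 complex the subunits did not keep the same proportion in every group. Cd3e per Cd3g, in TPM, was 0.273 ± 0.0312 in WT, 0.288 ± 0.0534 in the libraries with the WT+ZnO NPs label and 0.277 ± 0.0434 in KO (SD, n = 3). It was 0.146, 0.172 and 0.195 in those with the KO+ZnO NPs label, below all of the other 9 libraries. Across the 12 libraries the log2 CPM of the 10 genes went together, with Pearson's r from 0.53 (Cd3e and Cd5) to 0.95 (Cd8a and Il2ra) and a median of 0.83 over 45 pairs. The libraries share their group differences and depth, so these values only describe how the genes moved together.

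The genes outside the 10 with the most similar log2 CPM over the 12 libraries, at a mean of at least 1 CPM, were of different kinds for each member. For the CD3 mean they were Skap1, Ptprcap, Lck, Rasal3 and Ltbp2 (r from 0.92 to 0.94), of which Skap1, Ptprcap and Lck encode signalling proteins or partners of T cell and leukocyte receptors. For Cd4 they were Il7r (r = 0.98), the receptor of the survival cytokine IL-7, and then Cd74, H2-Eb1, H2-Aa and H2-Ab1 of the class II antigen presentation machinery. For Foxp3 they were Pdcd1lg2 (r = 0.96), a ligand of PD-1, and then Spata13, Igkv3-2, Ces2f and Nsg2. For Cd8a they included Cd96, Scn3a, Amz1 and Grap2, and for Il2ra they included Tbc1d10c, Grk3, F2rl2 and Rasal3.

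The lists of further genes below are to be read against the shares of all genes tested that were called, which were 4.61% higher in KO against WT, 20.8% higher and 22.1% lower with the WT+ZnO NPs label against WT, and 8.09% lower with ZnO NPs in KO skin. Other genes of the T cell receptor complex were counted from a list of 14 that includes Cd3d, Cd3e, Cd3g, Cd4 and Cd8a. In KO against WT, 4 of the 14 rose and 0 fell, with a median log2 fold change of 0.83. They were Cd4, Trac of the alpha chain (log2 fold change 1.81, SE 0.48), and Trbc1 (2.03, SE 0.45) and Trbc2 (1.26, SE 0.29) of the beta chain, which resemble each other in sequence and can lose or exchange reads. With ZnO NPs 7 of the 14 fell in KO skin and 4 fell in the libraries with the WT+ZnO NPs label, with medians of -1.18 and -0.45, and the 4 of 14 is near the 22.1% of all genes. Trac fell in KO skin (log2 fold change -2.13, SE 0.49), from 3.66, 10.1 and 7.84 CPM to 1.79, 1.66 and 1.48 CPM. Trbc2 did not follow, with 36.3, 39.0 and 31.4 CPM in KO and 38.6, 69.5 and 30.2 CPM in the libraries with the KO+ZnO NPs label, and Trbc1 and Trbc2 were the 2 genes of the list called higher there than in the libraries with the WT+ZnO NPs label (log2 fold changes 2.18 and 1.28). The gamma delta receptor gene Trdc, named after its values were seen, had 63.0 ± 9.42 TPM per 100 TPM of CD3 in KO and 73.4 ± 8.92 in WT (SD, n = 3), with 86.1 ± 27.4 under the WT+ZnO NPs label and 91.9 ± 6.00 under the KO+ZnO NPs label, whose libraries lay wholly above KO, and its log2 fold change of 0.54 in KO against WT was not called (edgeR quasi-likelihood test, Benjamini-Hochberg adjusted p = 0.396).

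Of 17 tested genes of T cell receptor signalling, Cd5 among them, 3 rose in KO against WT and 0 fell (median log2 fold change 1.01). They were the receptor Cd6 (log2 fold change 1.96, SE 0.52), the adaptor Lat (1.68, SE 0.38) and the kinase Lck (1.29, SE 0.33). With ZnO NPs 10 of the 17 fell in KO skin (median -1.71) and 9 in the libraries with the WT+ZnO NPs label (median -0.96), and 0 rose. Falls in KO skin included Cd28, the receptor of CD80 and CD86 (-2.76, SE 0.57), Ubash3a (-2.73, SE 0.69) and Themis (-2.66, SE 0.46).

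Among 18 tested genes linked to regulatory T cells, with Foxp3, Il2ra, Ctla4 and Icos included, 5 rose in KO against WT and 0 fell (median log2 fold change 1.00). Beside Foxp3 the largest were Tigit, an inhibitory receptor (log2 fold change 2.36, SE 0.56; from 0.462, 0.807 and 0.722 to 2.08, 3.86 and 4.36 CPM), and Nt5e, the ectonucleotidase CD73 (1.66, SE 0.37), which skin stromal cells also make. Of the 18, 9 fell with ZnO NPs in KO skin (median -1.27) and 7 in the libraries with the WT+ZnO NPs label (median -0.87), and 0 rose. Pdcd1, the receptor PD-1, fell in KO skin (log2 fold change -3.14, SE 0.77), from 1.57, 1.85 and 2.77 to 0.262, 0.302 and 0.131 CPM. Entpd1, the ectonucleotidase CD39, which macrophages also carry, fell in the libraries with the WT+ZnO NPs label (log2 fold change -2.45, SE 0.25) and had a called interaction of 1.65 (SE 0.34). The interaction of Ikzf4, a zinc finger factor that binds Foxp3, was also called, with the opposite sign (-1.88, SE 0.47). Ikzf2, a factor of thymic regulatory T cells named here after its values were seen, did not pass the test in any comparison, with 15.4, 29.04 and 27.0 CPM in KO and 16.1, 11.2 and 14.6 CPM in WT. It had 43.5, 17.4 and 20.9 CPM with the WT+ZnO NPs label, above all WT libraries. With the KO+ZnO NPs label it had 18.7, 13.9 and 29.3 CPM, which overlapped KO.

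T cell lineage and homing genes, 19 tested, had 8 that rose in KO against WT and 0 that fell. These included Ccr8, a chemokine receptor of skin T cells (log2 fold change 2.35, SE 0.53), Il7r (2.16, SE 0.53; from 20.4, 12.9 and 13.2 to 25.9, 104.7 and 77.0 CPM) and Lef1 (2.49, SE 0.64), which the growing hair follicle also makes. With ZnO NPs in KO skin 7 fell, among them Il7r (-2.53, SE 0.54) and Cxcr3 (-2.25, SE 0.42), a chemokine receptor of effector T cells, and 0 rose. In the libraries with the WT+ZnO NPs label 4 rose and 4 fell, among them Lef1 (5.61, SE 0.71) and Cxcr3 (-3.13, SE 0.43), shares near those of all genes tested (20.8% and 22.1%).

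Of 11 tested genes of the IL-2 axis, 0 were called by edgeR in KO against WT and 2 had an unadjusted p under 0.05 (median log2 fold change 0.0255). Il2rg, the common gamma chain, fell in the libraries with the WT+ZnO NPs label (log2 fold change -2.501, SE 0.27) and in KO skin (-1.22, SE 0.26), in all 8 and 3 of the 11 genes fell in these comparisons, and 0 rose. Of 9 tested ligands and partners of costimulatory receptors, 2 rose in KO against WT. Pdcd1lg2 had 0.965, 0.597 and 0.467 CPM in WT, 2.34, 8.56 and 4.23 CPM in KO and 0.305, 0.0504 and 0.218 CPM in the libraries with the KO+ZnO NPs label, with log2 fold changes of 2.89 (SE 0.58) and -4.66 (SE 0.66). Cd80 and Cd86, the ligands of CD28 and CTLA-4, fell in the libraries with the WT+ZnO NPs label (log2 fold changes -3.52, SE 0.42, and -2.64, SE 0.35). In KO skin Cd80 fell too (-2.01, SE 0.40), and Cd86 at -1.001 (SE 0.33) did not pass the test (edgeR, Benjamini-Hochberg adjusted p = 0.0640). Of the 10 tested cytotoxic and effector genes 0 were called by edgeR in KO against WT, where 2 had an unadjusted p under 0.05, and 3 fell in each of the comparisons with ZnO NPs, of which Gzma, granzyme A, fell in both (-3.39, SE 0.66, in WT skin by label and -2.45, SE 0.71, in KO skin). With the WT+ZnO NPs label, 3 of 10 is near the 22.1% of all genes. Of the 10 tested genes of dendritic epidermal T cells 1 rose in KO against WT, Itgae (1.61, SE 0.37), an integrin that other skin T cells share, and 3 fell with ZnO NPs in KO skin. With the WT+ZnO NPs label 3 of these 10 fell and 1 rose, Il17rb, a receptor of IL-25 (1.54, SE 0.33). Fcer1g, a signalling chain that myeloid cells also make, fell there (-3.58, SE 0.35) from 219.6, 187.3 and 170.9 CPM to 14.1, 21.5 and 12.7 CPM, and its interaction was called at 2.11 (SE 0.46). Klrg1, an inhibitory receptor, fell from 1.64, 1.47 and 1.06 CPM to 0.0800, 0.0914 and 0.119 CPM.

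Lists of markers of other leukocytes also held genes that fell with ZnO NPs, in differing numbers. All 6 pan-leukocyte markers fell with ZnO NPs in both comparisons, with median log2 fold changes of -3.12 in the libraries with the WT+ZnO NPs label and -1.76 in KO skin, while 0 of the 6 were called by edgeR in KO against WT, where 1 had an unadjusted p under 0.05 (median -0.44). Their summed level was 976 to 1323 CPM in WT, 100.2 to 184 in the libraries with the WT+ZnO NPs label, 513 to 1030 in KO and 215 to 258 in those with the KO+ZnO NPs label. Macrophage markers fell in 8 of 8 genes in the libraries with the WT+ZnO NPs label, from a sum of 3392 to 4299 CPM to one of 191 to 428, and in 7 of 8 in KO skin, from 1805 to 3255 CPM to 351 to 830. The CD3 mean per 100 TPM of Ptprc, the gene of the pan-leukocyte protein CD45, was 20.9 ± 6.48 in WT, 52.2 ± 13.9 in KO, 155 ± 63.1 in the libraries with the WT+ZnO NPs label and 106.1 ± 26.3 in those with the KO+ZnO NPs label (TPM, SD, n = 3), the WT libraries being below all others. Of 6 B cell markers 4 fell in the libraries with the WT+ZnO NPs label and 3 in KO skin, and of 6 markers of natural killer and innate lymphoid cells 3 and 1 fell, beside 22.1% and 8.09% of all genes tested. Of 7 mast cell markers 2 rose in KO against WT, 4 fell and 1 rose with the WT+ZnO NPs label, and 1 fell with ZnO NPs in KO skin. Their sum was 196 to 376 CPM in WT, 518 to 937 in KO and 63.2 to 144 with the WT+ZnO NPs label, and with the KO+ZnO NPs label it was 182, 106 and 814 CPM. Markers of Langerhans and dendritic cells summed to 663 to 886 CPM in WT and 1020 to 1497 in KO, with 1 of 8 called higher, and 5 of the 8 fell in each comparison with ZnO NPs. No gene of these lists was at 0 in all libraries.

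Summed markers of cells other than leukocytes also differed between groups. Fibroblast markers summed to 7049 to 13902 CPM in WT, 23166 to 37282 in KO, 7678 to 33420 with the WT+ZnO NPs label and 15751 to 21472 with the KO+ZnO NPs label, though 0 of 6 were called by edgeR in KO against WT, where 4 had an unadjusted p under 0.05. Keratinocyte markers summed to 7708 to 11808 CPM in WT and 13582 to 25050 in KO without overlap, and 1 of 7 rose. With the WT+ZnO NPs label 3 of these 7 rose and 3 fell. Adipocyte markers fell in 4 of 6 with the WT+ZnO NPs label, from 5395 to 7119 CPM in WT to 959 to 2174 CPM, and summed to 2345 to 4320 CPM in KO and 1079 to 5608 CPM with the KO+ZnO NPs label. Of 7 skeletal muscle markers 1 fell in KO against WT and 1 rose in each comparison with ZnO NPs. The part of these cells and of the leukocytes above in the T cell results was not tested.

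The markers of growing (anagen) hair follicles, 7 genes of which Krt71, Krt25 and Krt27 are keratins of the inner root sheath and Lef1 is also in the list of lineage factors, also moved with the groups. They rose in 7 of 7 in KO against WT and in the libraries with the WT+ZnO NPs label. In KO+ZnO NPs against KO and between the groups given ZnO NPs 0 of 7 were called by edgeR (median log2 fold changes 0.38 and -1.36). Their sum was 5.08, 1.72 and 6.12 CPM in WT, 7103, 13.8 and 2126 CPM in KO, 632, 2533 and 3758 CPM in those with the WT+ZnO NPs label and 5268, 4350 and 172 CPM in those with the KO+ZnO NPs label. KO replicate 2, whose hair follicle sum was the KO value nearest to WT, had 8.88 CPM of Foxp3 and the highest Cd4 of all libraries, at 37.2 CPM. KO replicate 1, with the highest hair follicle sum and the KO library with Y-linked transcripts, had the lowest Foxp3 and Cd4 of its group. KO replicate 3, at a sum of 2126 CPM, had the highest Foxp3 of its group, 10.04 CPM, and 27.1 CPM of Cd4. The part of the hair cycle in these results was not tested.

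**Figure D4:**
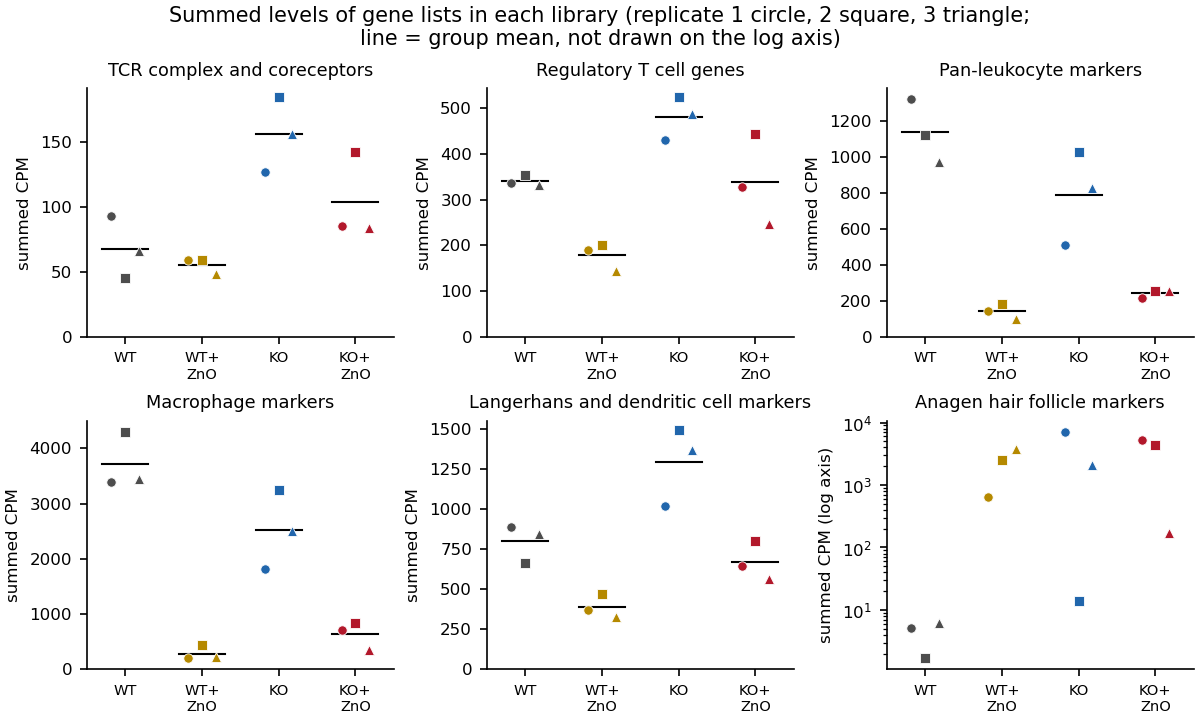
Summed CPM of the genes of 6 lists in each library, with the group mean as a line, on axes from 0 except for anagen hair follicle markers, which are on a log axis without a mean. Pan-leukocyte markers lie at 976 to 1323 in WT and at 100.2 to 184 in the libraries with the WT+ZnO NPs label, whereas genes of the T cell receptor complex lie at 45.1 to 93.0 and 48.1 to 59.3. Within that sum 4 of the 14 genes were called lower there and 0 higher, beside 22.1% of all genes called lower.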

How the data were processed

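Whole-skin RNA-seq of 12 mice was analysed from 1 table of raw read counts per gene that the authors deposited. Their methods name STAR and HTSeq, and the submitters' processing notes name HISAT2 2.0.5 and mm10. The annotation release and strand setting are not given in the sources used here. The table holds 52636 genes, of which 52489 matched GENCODE vM21 (GRCm38), and 0 rows name no gene. Groups came from the labels, and replicates are separate mice.

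Genes passing filterByExpr (18822) were scaled by TMM and fitted in edgeR 4.0.16 (R 4.3.3) over all 12 libraries with 1 coefficient per group. The quasi-likelihood test was used with Benjamini-Hochberg adjustment over all genes tested, and genes with an adjusted p below 0.05 were called. The SE was derived from the log2 fold change and its F statistic. TPM was computed over summed exon length. The 10 genes and all gene lists were chosen with earlier results of these data known. Named genes of a list were the 3 called genes with the largest log2 fold change in each comparison, and others are said to be named after their values were seen. Some genes that these rules select are not reported here. The 5 genes most similar to a member were taken by Pearson correlation of log2 CPM at a mean of at least 1 CPM. Alternatives were DESeq2 1.42.0, other scalings and filters, a replicate block, Y-linked transcripts as a covariate, thinning to the smallest total, only the groups compared, and leaving out each library. Chosen after seeing the data were fits of only libraries without Y-linked transcripts and without the libraries with the WT+ZnO NPs label. The script was tested on simulated data. Totals lay between 21076320 and 28867802 counts, and replicates differed by 37.4 to 161.8 in chi-square per degree of freedom, well above counting error.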

Additional observations from a re-analysis of the deposited data

How the results depend on the processing

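Of 1065 alternative values for single genes, 925 kept direction and side of the threshold, 84 lost and 32 gained a call, and 24 changed sign, none of them called in either fit. In KO against WT the 2 calls became 6 with DESeq2, 6 with only the groups compared, 4 without the libraries with the WT+ZnO NPs label, 3 by library size, 3 without a filter, 3 with only libraries that lack Y-linked transcripts, 1 with at least 10 counts in every library (7 of the 10 tested), and 0 to 4 without 1 library. In the libraries with the WT+ZnO NPs label against WT the 4 calls became 2 by library size, without a filter or thinned, 0 with Y-linked transcripts as covariate, and 1 to 4 without 1 library. In KO+ZnO NPs against KO the 7 calls became 9 with DESeq2, 8 thinned, 6 with at least 10 counts, 2 with only the groups compared, 4 with only libraries that lack Y-linked transcripts, 5 without the libraries with the WT+ZnO NPs label, and 1 to 8 without 1 library. Between the groups given ZnO NPs, DESeq2 and the minimum of 10 counts each gave 1 call, and for the interaction DESeq2 gave 1. The cause was not tested, save that fewer libraries or genes entered some fits. Same-numbered samples correlated between -0.343 and 0.429, so the numbers do not pair them; with the replicate number as a block the calls were 1, 2 and 5 in the first 3 comparisons. Signs changed with the Y-linked covariate for Cd3d (0.25), Cd3e (0.34) and Ctla4 (0.058) in the libraries with the WT+ZnO NPs label against WT, for Cd3d (-0.52), Cd3g (-0.056) and Icos (-0.018) between the groups given ZnO NPs, and for the interaction of Cd5 (-0.046). Cd3d between the groups given ZnO NPs was -0.0070 with RLE factors, -0.015 with only these groups, -0.13 by library size, -0.0019 with at least 10 counts, -0.0018 with the block, and -0.34 to 0.24 without 1 library, where Icos was -0.26 to 1.47. Without 1 library Cd3e in WT skin by label was -0.75 to 0.0079, and the interactions were -1.04 to 0.30 for Cd4, -0.79 to 0.10 for Cd8a, -1.74 to 0.14 for Ctla4 and -0.042 to 0.60 for Cd5. Scaling by library size moved the median of all genes from 0.0244 to -0.13 for the interaction, and between the groups given ZnO NPs it turned 400 higher and 218 lower genes into 258 and 516.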
